A study of Mus musculus with 28 samples.

Results

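The 36 genes described here act in peptide presentation and were measured in primary mouse microglia: 22 genes of MHC class I presentation with the immunoproteasome, and 14 constitutive subunits of the proteasome core. They were picked by gene symbol from the count tables, where each symbol stood once, and they are 36 of 29074 gene entries with a count above 0. The 22 are 10 class I heavy chains, the light chain B2m, 5 loading and trimming genes, the regulator Nlrc5, 3 immunoproteasome subunits and both PA28 subunits. All 36 passed the filter on low counts in each comparison. The heavy chains, Tap1, Tap2, Tapbp, Psmb8 and Psmb9 lie in the MHC region of chromosome 17 (GENCODE annotation of GRCm38), and B2m lies on chromosome 2, Tapbpl on 6, Nlrc5 and Psmb10 on 8, Erap1 on 13, and Psme1 and Psme2 on 14.

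The study exposed primary microglia of 2 APOE genotypes, labelled APOE3 mice and APOE3S/S mice, to tau, to amyloid or to nothing, and sequenced the RNA in bulk by 3′ tag counting. APOE3S/S, labelled Christchurch, is the Christchurch variant of APOE3, and libraries of APOE3 are labelled WT. There were 6 tau, 3 amyloid and 4 untreated libraries of APOE3S/S, and 6 tau, 3 amyloid and 6 untreated libraries of APOE3. The label of the untreated libraries reads Control, and neither the form and dose of tau or amyloid nor the age of the mice is given in the sources used here. Library titles follow 2 naming series: 17 libraries have titles ending in SAN, with all treatments, and 11 have titles of a second series, with tau and untreated libraries. Whether replicates came from different cultures or mice is not stated in the labels, so p-values measure the spread between these libraries, which may be technical. In bulk RNA, fewer cells of a type and less RNA per cell cannot be told apart.

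Proteasomes cut cytosolic proteins into peptides, TAP carries the peptides into the endoplasmic reticulum, and there they are trimmed and loaded onto class I heavy chains paired with B2m for display at the cell surface. Interferons are known to raise the genes of this route and to replace the catalytic subunits Psmb6, Psmb7 and Psmb5 of newly built proteasomes by Psmb9, Psmb10 and Psmb8, which gives the immunoproteasome. Nlrc5 is the transactivator of class I genes, and in brain, microglia are a main cell type that displays class I under inflammation.

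Library totals ran from 14.47 to 27.23 M counts, and the 36 genes took 0.966 to 2.638% of a library's counts. The microglial markers summed to 6068 to 9549.6 CPM (counts scaled to 1000000 counts per library) with all 10 markers detected in each group. Of the T and NK cell markers, Cd3d, Cd8a, Trac, Nkg7 and Gzmb were at 0 in every library. Cd4 had 1.36 to 10.05 CPM in all 28 libraries, and Klrb1c was detected in 23, Cd3g in 5, Cd3e in 3 and Ncr1 in 1. Monocyte and border macrophage markers summed to 479 to 904 CPM, with Mrc1 at 348 to 891 CPM and Ly6c2 at 0.045 to 174 CPM. Granulocyte markers in the SAN titles of APOE3 summed to 15.7 to 23.6 CPM with tau, against 6.58 to 14.0 CPM untreated. In the second series these were 3.74 to 4.10 and 2.90 to 3.68 CPM. The granulocyte sum was nearly all S100a8, with a median of 9.38 CPM over all 28 libraries. Camp had a median of 0.122 CPM, Ly6g was detected in 1 library, and S100a9 and Retnlg were at 0 in every library. In APOE3, oligodendrocyte markers (6 of 6 detected) summed to 228 to 243 CPM in tau libraries, against 181 to 229.9 CPM in untreated libraries. Astrocyte markers (6 of 6 detected) summed to 32.5 to 60.9 CPM in those tau libraries, against 23.4 to 37.8 CPM in the untreated ones. Amyloid libraries of APOE3 had 44.3 to 76.2 CPM of astrocyte markers, and in APOE3S/S tau and amyloid libraries had 41.2 to 68.0 CPM and 52.7 to 74.2 CPM, against 28.5 to 63.3 CPM untreated. The part of these cells in the results below was not tested. Untreated APOE3S/S replicate 2, of the SAN titles, stands apart from replicate 1: over the 22 genes, its median log2 difference from the untreated APOE3 libraries of the same title series was 1.12, against -0.05 in replicate 1. In the second series, untreated APOE3S/S replicates 3 and 4 were also apart, at -0.375 and 0.552 (1 and 19 of the 22 genes above 0). Where leaving replicate 2 out changed a call, a direction or the size of a value, the value without it is given.

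**Figure D1:**
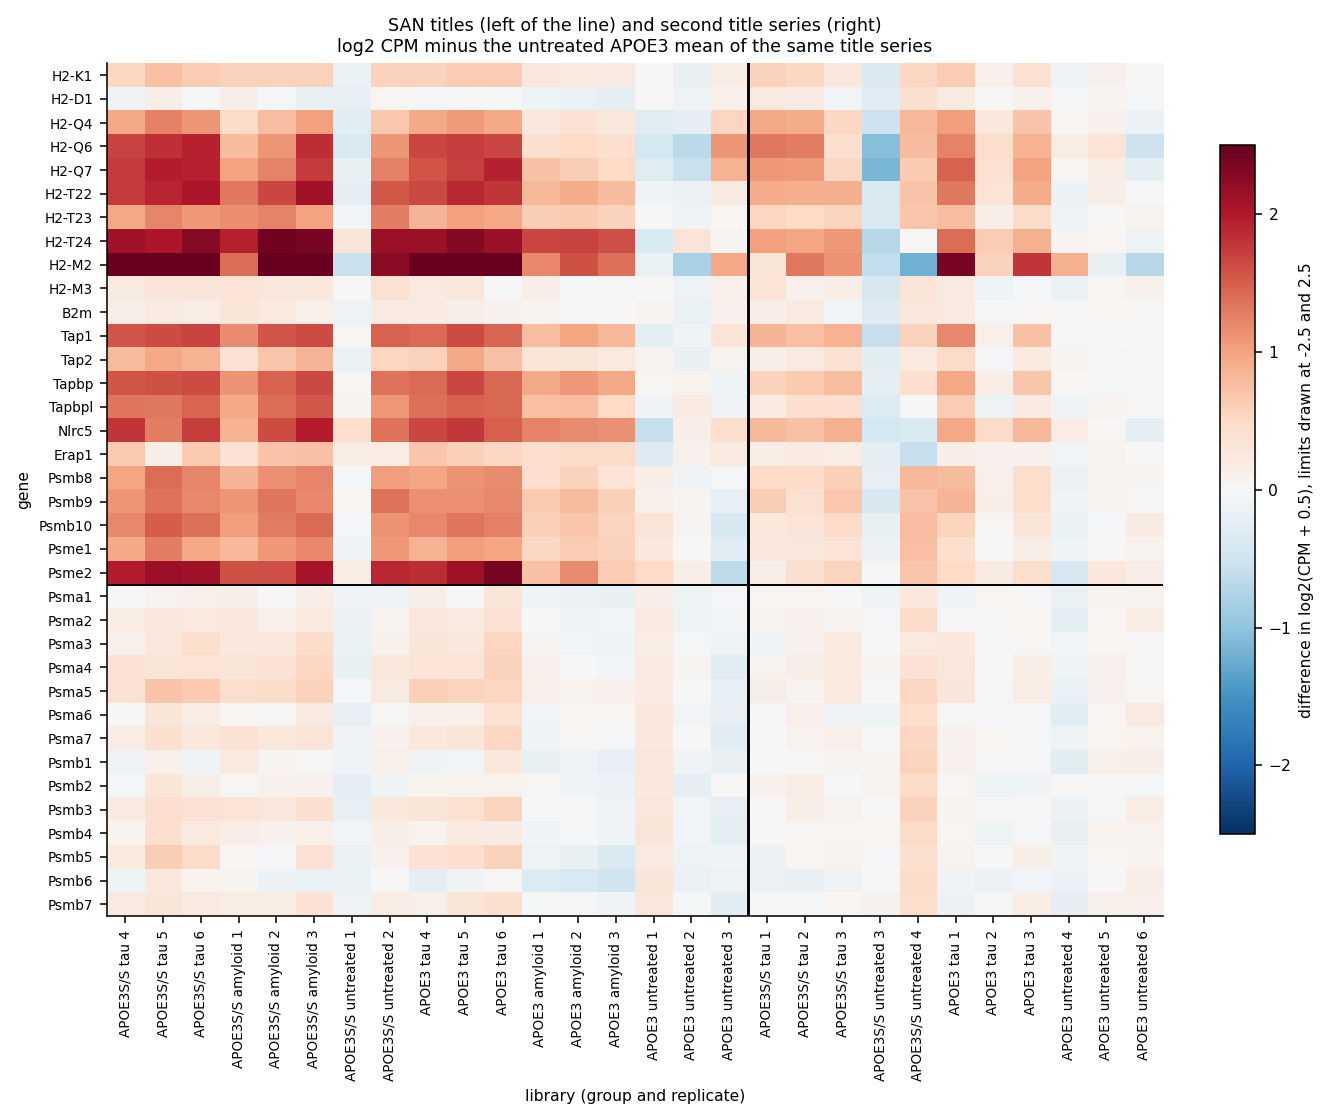
Each cell is the difference in log2(CPM + 0.5) of a gene (rows) in a library (columns) from the mean of the untreated APOE3 libraries of the same title series, with treated libraries left of untreated ones. Each SAN tau or amyloid library has 19 or more of the upper 22 genes above 0, untreated APOE3S/S replicate 2 has all 22 (median 1.12), and the 14 constitutive subunits are paler.

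Whether tau changed class I genes was first tested in APOE3 microglia. Tau raised 19 of the 22 class I and immunoproteasome genes and none of the 14 constitutive subunits (edgeR quasi-likelihood test, Benjamini-Hochberg adjusted p under 0.05, from here on "called"), where 8.98% of the 13912 genes tested were called higher. The median log2 fold change was 0.86 over the 22 genes and 0.18 over the 14 subunits, beside -0.02 over all genes tested. At an unadjusted p under 0.05 there were 4 of the 14 subunits, near the share of all genes tested (3814 of 13912). The 3 of the 22 that were not called were H2-D1, H2-M3 and B2m.

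**Figure D2:**
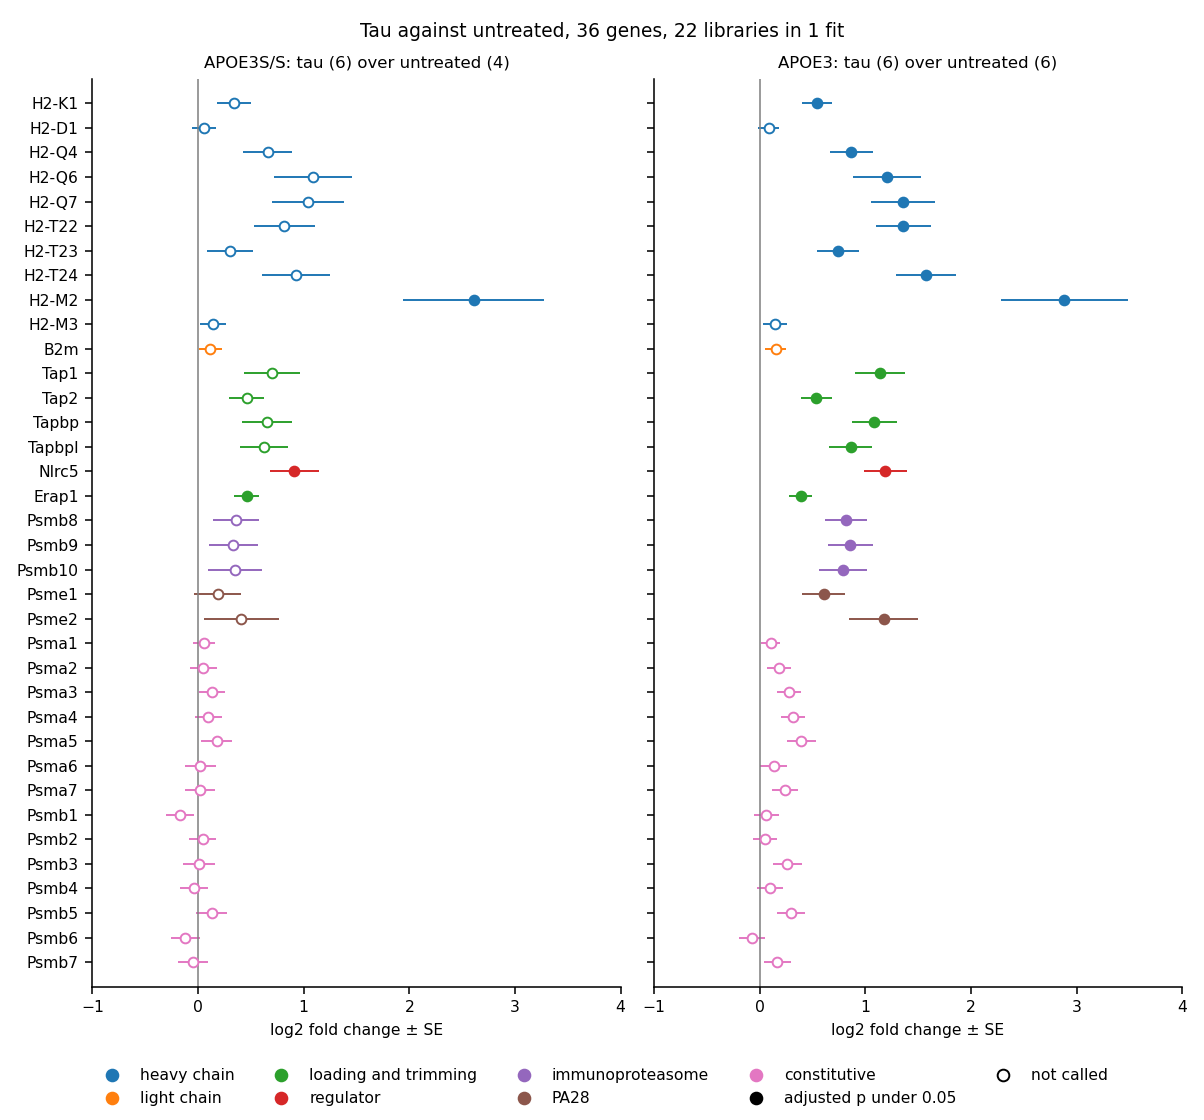
Log2 fold changes (x axis, bars are standard errors) of tau over untreated for 36 genes (rows, coloured by role), in APOE3S/S on the left and in APOE3 on the right; filled points have an adjusted p under 0.05. In APOE3, 19 of the upper 22 genes are filled and in APOE3S/S 3 of them, and no constitutive subunit is filled in either panel.

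Among the heavy chains, 8 of 10 rose with tau in APOE3. H2-K1, a classical heavy chain that presents peptides to CD8 T cells, had 5811, 6039.7 and 6102 CPM in tau libraries of the SAN titles, against 3864, 3449 and 4470.5 CPM in untreated ones. In the second title series it had 3173, 2212 and 2637 CPM with tau, against 1884, 2176 and 2046 CPM untreated. The groups overlapped in neither series, and H2-K1 rose by a log2 fold change of 0.54 ± 0.15 (standard error; adjusted p = 0.0131). The other classical heavy chain, H2-D1, had 5828, 5935 and 5943 CPM with tau, against 5967, 5483 and 6485 CPM untreated in the SAN titles, ranges that overlap, and its log2 fold change over both series was 0.09 ± 0.10 (adjusted p = 0.648). The 2 classical chains thus gave different calls, and the difference between them was not tested.

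H2-Q4, H2-Q6 and H2-Q7, non-classical chains of the H2-Q cluster, rose with tau. H2-Q7, which encodes a Qa-2 antigen, had 332, 369 and 428 CPM in tau libraries of the SAN titles, against 90.3, 76.2 and 204 CPM untreated, and 71.4, 33.4 and 52.0 CPM in tau libraries of the second series, against 26.2, 29.2 and 21.7 CPM untreated. Every tau library lay above every untreated library of its own series, although untreated APOE3 replicate 3 was high. The log2 fold change was 1.36 ± 0.30 for H2-Q7 (adjusted p = 0.00352), 1.20 ± 0.32 for H2-Q6 (adjusted p = 0.0133) and 0.87 ± 0.20 for H2-Q4 (adjusted p = 0.00543). H2-Q6 shared 49.4% of the 50-base words of its transcripts' last 300 bases with other genes, H2-Q7 first among them (words looked up in the whole transcripts of all other genes), so counts of H2-Q6 may hold reads of its copies. The last 300 bases of H2-Q7 shared none, while H2-Q4, H2-T23, H2-D1 and H2-K1 shared 28.5, 20.5, 19.4 and 14.1%, and their counts are uncertain to that extent.

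In the H2-T cluster, H2-T24 had 104, 115 and 104 CPM with tau, against 17.4, 28.8 and 24.0 CPM untreated in the SAN titles, and 97.1, 57.6 and 68.6 CPM with tau, against 38.5, 38.0 and 33.7 CPM untreated in the second series. The groups were apart in both, and H2-T24 rose by 1.57 ± 0.29 on the log2 scale (adjusted p = 0.000832). H2-T22, known in mouse as a ligand of gamma-delta T cells, rose by 1.36 ± 0.26 (adjusted p = 0.00104), and shared 26.0% of its 3′ words with H2-T10. H2-T23, which encodes Qa-1, the ligand of the inhibitory receptor CD94/NKG2A, rose by 0.74 ± 0.20 (adjusted p = 0.0124).

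H2-M2 had the highest fold change of the 36 genes, with a larger estimate in the SAN titles than in the second series. It had 268, 317 and 369.7 CPM in tau libraries of the SAN titles, against 12.3, 7.66 and 27.3 CPM untreated, and 33.5, 9.3 and 22.2 CPM in tau libraries of the second series, against 11.7, 5.24 and 3.57 CPM untreated. In the SAN titles all tau libraries lay far above the untreated ones, whereas in the second series the groups overlapped. The log2 fold change was 2.88 ± 0.60 over both series (adjusted p = 0.00217), 4.44 ± 0.64 in the SAN titles alone and 1.70 ± 0.46 in the second series alone (adjusted p = 0.0718). The direct test of a difference in tau effect between title series, given below, did not call H2-M2. H2-M3, which presents N-formylated peptides of bacteria and mitochondria, changed by 0.15 ± 0.11 (adjusted p = 0.423), with 79.8, 83.4 and 69.1 CPM in SAN tau libraries, against 67.6, 62.9 and 74.8 CPM untreated.

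B2m, the light chain that class I heavy chains need to reach the surface, was not called. It had 4749.6, 4564 and 4489.5 CPM in SAN tau libraries, against 4354, 3667 and 4443 CPM untreated, and 3725, 3154 and 3270.0 CPM in tau libraries of the second series, against 3089.5, 3325 and 3218 CPM untreated. The tau libraries lay above the untreated ones in the SAN titles and overlapped them in the second series. The log2 fold change was 0.15 ± 0.10 (adjusted p = 0.354).

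**Figure D3:**
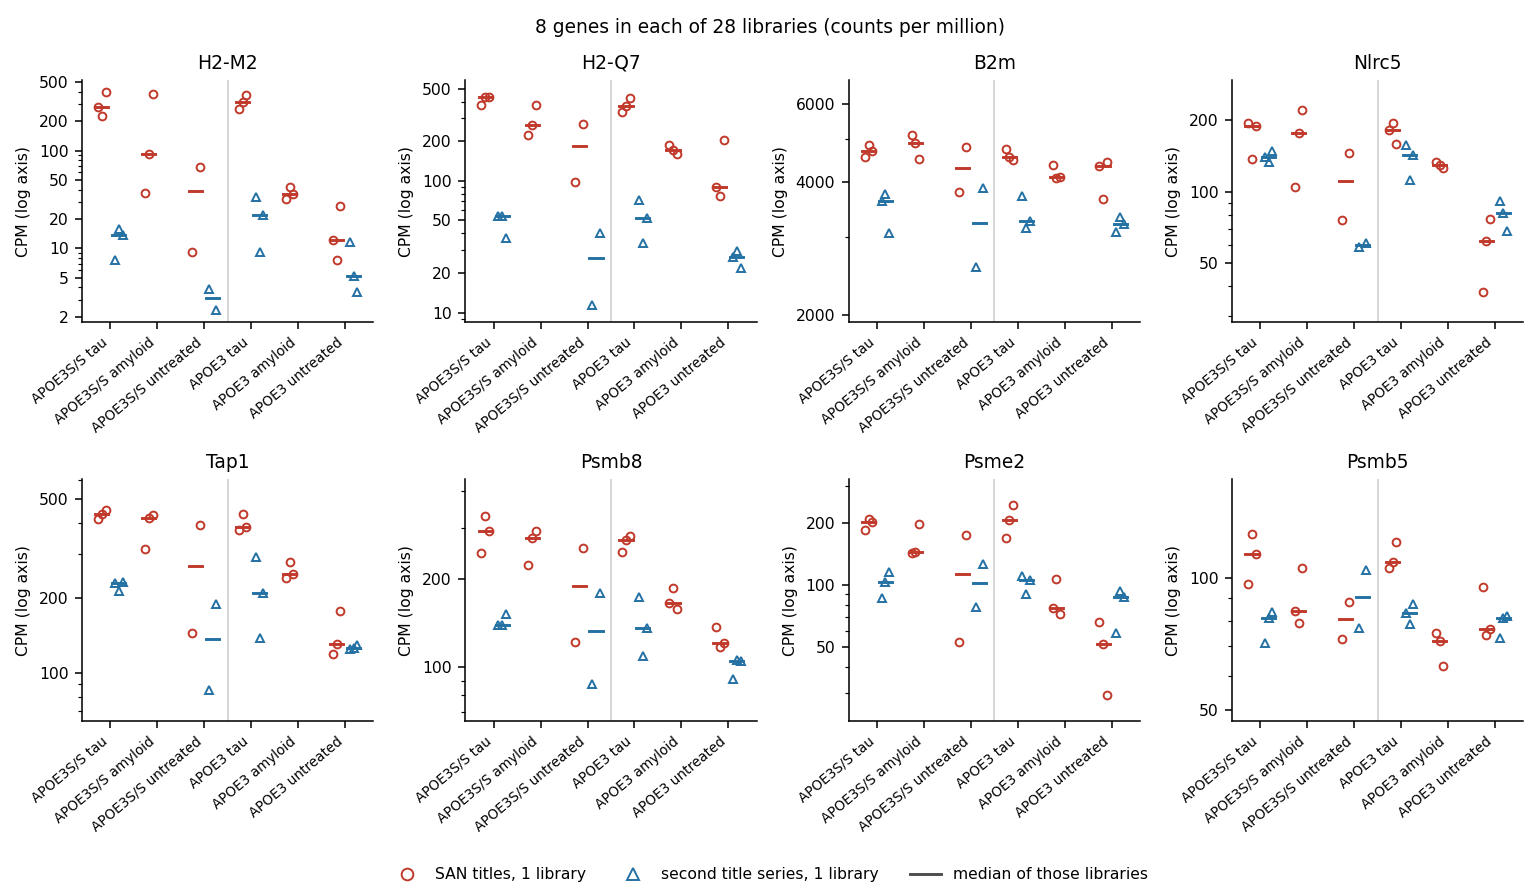
CPM on log axes for 8 genes in each of the 28 libraries; circles are SAN titles, triangles the second title series, and short lines their medians. H2-M2, H2-Q7, Tap1, Psmb8 and Psme2 are higher in tau than in untreated APOE3 libraries of the SAN titles, B2m and Psmb5 differ less, and untreated APOE3S/S replicate 2 is the upper circle of its group in all 8 panels.

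All 5 loading and trimming genes rose with tau in APOE3. Tap1, a subunit of the peptide transporter, had 375, 435 and 386 CPM with tau, against 119, 131 and 177 CPM untreated in the SAN titles, and 292, 139 and 209.6 CPM with tau, against 125, 126 and 130.0 CPM untreated in the second series. Its tau libraries lay above the untreated ones in both series, and it rose by 1.14 ± 0.24 (adjusted p = 0.00206). Its partner Tap2 rose by 0.54 ± 0.15 (adjusted p = 0.0162), a call that was lost without untreated APOE3 replicate 2. Tapbp (tapasin), which bridges class I to the transporter, rose by 1.09 ± 0.21 (adjusted p = 0.00121). Tapbpl, the tapasin-related peptide editor, rose by 0.86 ± 0.20 (adjusted p = 0.00576), and Erap1, which trims peptides in the endoplasmic reticulum, by 0.39 ± 0.11 (adjusted p = 0.0148).

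Nlrc5, the class I transactivator, had 182, 195 and 159 CPM in tau libraries of the SAN titles, against 37.8, 62.3 and 76.7 CPM untreated, and 158, 112 and 143 CPM in tau libraries of the second series, against 91.2, 81.8 and 68.6 CPM untreated. Both series were without overlap. Nlrc5 rose by 1.19 ± 0.21, with the smallest adjusted p of the 36 genes (adjusted p = 0.000578), and Nlrc5 and H2-T24 were the only members called in each title series alone in APOE3.

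The catalytic subunits of the immunoproteasome rose together. Psmb8 had 247, 272 and 282 CPM with tau, against 137, 117 and 121 CPM untreated in the SAN titles, and 174, 109 and 136 CPM with tau, against 91.0, 106 and 105 CPM untreated in the second series. The groups were apart in both, as they were for Psmb9, while those of Psmb10 overlapped in the second series. None of the 3 was called in the second series alone. Over both series the log2 fold changes were 0.82 ± 0.20 for Psmb8 (adjusted p = 0.00665), 0.86 ± 0.21 for Psmb9 (adjusted p = 0.00669) and 0.79 ± 0.23 for Psmb10 (adjusted p = 0.0199). The call of Psmb10 was lost without untreated APOE3 replicate 2 or 3.

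PA28 is a proteasome cap of Psme1 and Psme2 subunits that widens the choice of cuts. Psme2 had 168, 205 and 243 CPM in SAN tau libraries, against 66.2, 52.0 and 29.5 CPM untreated, and 110.4, 90.1 and 106 CPM in tau libraries of the second series, against 58.4, 93.4 and 87.6 CPM untreated, where the ranges overlapped. It rose by 1.17 ± 0.32 over both series (adjusted p = 0.0154), though 37.0% of its 3′ words occur in copies such as Psme2b. Psme1 rose by 0.61 ± 0.20 (adjusted p = 0.0456), a call close to the threshold that was lost in 12 of the 22 fits that left out 1 library.

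Of the 14 constitutive subunits none was called with tau in APOE3, and their log2 fold changes ran from -0.07 in Psmb6 to 0.40 in Psma5. Psmb5, the constitutive counterpart of Psmb8, had 105, 109 and 121 CPM with tau, against 95.5, 74.1 and 76.4 CPM untreated in the SAN titles, and 83.1, 78.5 and 87.5 CPM with tau, against 72.9, 80.9 and 82.2 CPM untreated in the second series. Its log2 fold change was 0.30 ± 0.13 (adjusted p = 0.14), with groups apart in the SAN titles and overlapping in the second series. Psmb6 and Psmb7, the counterparts of Psmb9 and Psmb10, gave -0.07 ± 0.12 (adjusted p = 0.78) and 0.17 ± 0.13 (adjusted p = 0.427). The structural beta subunits were Psmb1 at 0.06, Psmb2 at 0.05, Psmb3 at 0.26 and Psmb4 at 0.10.

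The alpha ring, which gates the core, gave log2 fold changes of 0.10 for Psma1, 0.19 for Psma2, 0.28 for Psma3, 0.32 for Psma4, 0.13 for Psma6 and 0.24 for Psma7. Psma5 stood just outside the threshold (0.40 ± 0.14, adjusted p = 0.0515). DESeq2 called 2 of the 14 subunits and limma-voom and RLE scaling 1 each, all higher. Of all 13912 genes tested, DESeq2, limma-voom and RLE scaling called 1450, 1329 and 1258 higher. Counts of Psmb5, Psma5, Psmb3, Psma3 and Psma4 are uncertain, since 51.4, 38.2, 21.6, 21.0 and 19.5% of their 3′ words also occur in other entries such as Gm3375 for Psmb5.

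Ratios within a library need no scaling between libraries, and they set each immunoproteasome subunit against the constitutive subunit it replaces. In APOE3, the log2 ratio of Psmb9 over Psmb6 averaged -0.90 ± 0.56 in tau libraries and -1.83 ± 0.21 in untreated libraries (SD, n = 6 each). That difference of 0.92 had an exact two-sided permutation p = 0.005 with libraries exchanged within title series, the smallest the design allows, and 0.03 when adjusted over 12 tests. Psmb10 over Psmb7 averaged 1.93 ± 0.35 with tau and 1.28 ± 0.16 untreated (SD, n = 6 each; exact permutation p = 0.01, adjusted p = 0.04). Psmb8 over Psmb5 averaged 0.99 ± 0.35 with tau and 0.48 ± 0.15 untreated (SD, n = 6 each; exact permutation p = 0.005, adjusted p = 0.03). All 3 ratios were higher with tau than untreated. The adjusted p was 0.06 for Psmb9 and Psmb8 without untreated APOE3 replicate 4, 5 or 6, and 0.08 or 0.09 for Psmb10 without those or without tau replicate 1, so the calls were lost (exact permutation). Within the SAN titles the differences were 1.26, 0.99 and 0.64 for Psmb9, Psmb10 and Psmb8, and within the second series 0.58, 0.30 and 0.37, where 3 libraries against 3 cannot pass the threshold.

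**Figure D4:**
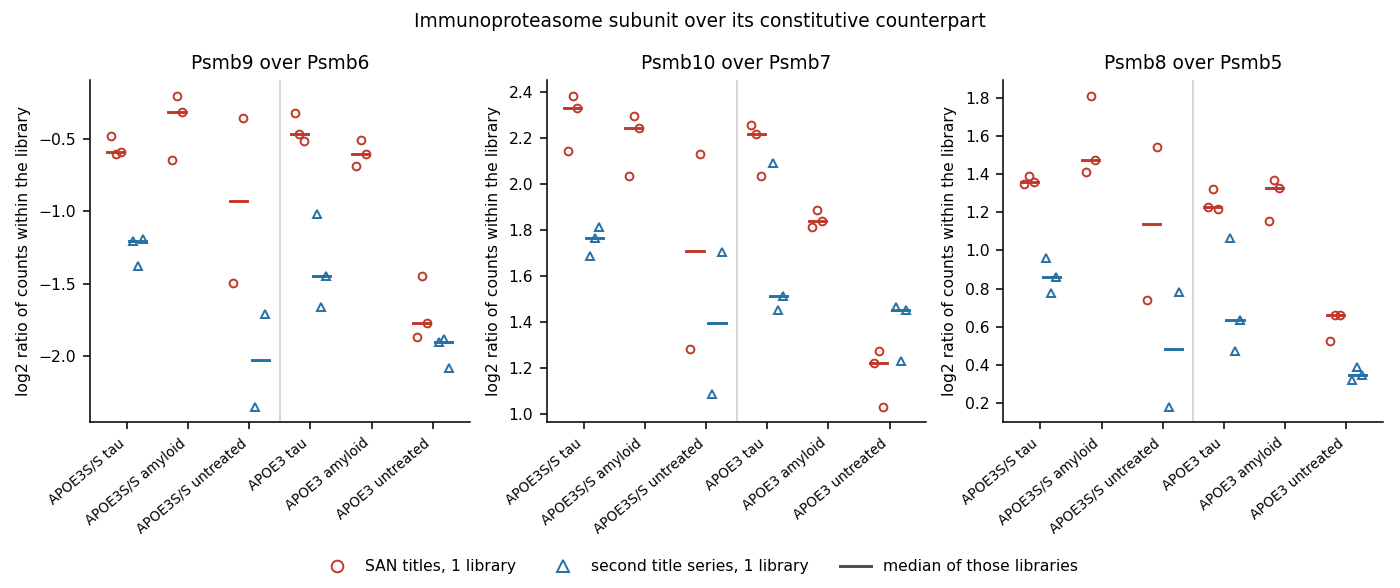
Log2 ratio of counts within each library (y axis) for 3 pairs of an immunoproteasome subunit over its constitutive counterpart, by group; circles are SAN titles, triangles the second title series, short lines their medians. In APOE3 the SAN tau libraries lie above the SAN untreated libraries in each pair, and in untreated APOE3S/S the libraries of each series lie far apart.

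In APOE3S/S the same ratios differed in the same direction by 0.57 for Psmb9 over Psmb6, 0.47 for Psmb10 over Psmb7 and 0.31 for Psmb8 over Psmb5, and none passed the adjustment (adjusted exact permutation p = 0.096, 0.09 and 0.2). Without untreated APOE3S/S replicate 2 they were 0.84, 0.61 and 0.48, and without replicate 1 they were 0.40, 0.28 and 0.17, with no pair past the threshold in either case. Under amyloid the ratio differences from untreated were 0.54, 0.48 and 0.42 in APOE3S/S and 1.10, 0.67 and 0.67 in APOE3, in the same order of pairs. The APOE3S/S differences under amyloid were 1.11, 0.91 and 0.82 without untreated replicate 2 and -0.03, 0.06 and 0.03 without untreated replicate 1, so that of Psmb9 over Psmb6 turned its direction. In APOE3 the 3 amyloid libraries lay above the 3 untreated libraries for all pairs, with an exact permutation p = 0.1, the smallest that 3 against 3 allows.

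Promoter windows from RefSeq (GRCm38.p6, 250 bases before to 50 after the annotated start) were found for 29 of the 36 genes and are shown for 6 of them, because these genes differ in the tau comparison and in the elements their windows hold. Capitals mark matches, on either strand, to the interferon-stimulated response element core GAAANNGAA, the STAT site TTCNNNGAA, the antioxidant response element core TGACNNNGC and the Y box core CCAAT. The first set has H2-T23, called higher with tau (chr17:36032652-36032951, minus strand), H2-Q7, called higher (chr17:35438905-35439204, plus strand), and B2m, not called (chr2:122147437-122147736, plus strand).
H2-T23: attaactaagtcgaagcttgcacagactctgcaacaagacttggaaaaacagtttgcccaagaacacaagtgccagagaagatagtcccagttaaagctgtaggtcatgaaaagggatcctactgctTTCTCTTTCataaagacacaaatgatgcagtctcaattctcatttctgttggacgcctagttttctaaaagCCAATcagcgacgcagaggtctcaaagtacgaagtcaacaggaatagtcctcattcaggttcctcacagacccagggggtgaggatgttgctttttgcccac
H2-Q7: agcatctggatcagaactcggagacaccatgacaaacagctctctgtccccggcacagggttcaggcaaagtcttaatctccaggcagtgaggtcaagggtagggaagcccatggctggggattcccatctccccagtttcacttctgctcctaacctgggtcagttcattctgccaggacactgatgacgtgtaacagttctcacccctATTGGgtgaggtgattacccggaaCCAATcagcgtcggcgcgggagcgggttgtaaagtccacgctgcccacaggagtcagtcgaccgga
B2m: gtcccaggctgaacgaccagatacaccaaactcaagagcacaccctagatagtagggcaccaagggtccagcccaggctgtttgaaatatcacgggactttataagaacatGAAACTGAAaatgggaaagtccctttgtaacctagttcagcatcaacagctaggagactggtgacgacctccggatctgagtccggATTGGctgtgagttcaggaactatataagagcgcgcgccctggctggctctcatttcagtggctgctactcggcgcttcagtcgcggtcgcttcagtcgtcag
The second set has Tap1, whose window overlaps that of Psmb9 on the other strand so that both genes share it (chr17:34187306-34187605, plus strand), Psmb8, called higher (chr17:34197945-34198244, plus strand), and its constitutive counterpart Psmb5, not called (chr14:54617946-54618245, minus strand).
Tap1: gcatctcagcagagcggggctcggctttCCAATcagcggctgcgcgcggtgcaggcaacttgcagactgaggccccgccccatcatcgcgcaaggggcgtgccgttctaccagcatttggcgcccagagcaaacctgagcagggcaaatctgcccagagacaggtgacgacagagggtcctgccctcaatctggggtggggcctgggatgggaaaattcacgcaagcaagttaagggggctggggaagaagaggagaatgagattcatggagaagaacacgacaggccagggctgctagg
Psmb8: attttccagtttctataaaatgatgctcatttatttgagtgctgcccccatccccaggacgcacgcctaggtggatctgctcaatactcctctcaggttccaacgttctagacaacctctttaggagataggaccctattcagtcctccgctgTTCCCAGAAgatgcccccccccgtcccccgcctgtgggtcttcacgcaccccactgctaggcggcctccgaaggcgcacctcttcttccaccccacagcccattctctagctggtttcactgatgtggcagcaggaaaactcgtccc
Psmb5: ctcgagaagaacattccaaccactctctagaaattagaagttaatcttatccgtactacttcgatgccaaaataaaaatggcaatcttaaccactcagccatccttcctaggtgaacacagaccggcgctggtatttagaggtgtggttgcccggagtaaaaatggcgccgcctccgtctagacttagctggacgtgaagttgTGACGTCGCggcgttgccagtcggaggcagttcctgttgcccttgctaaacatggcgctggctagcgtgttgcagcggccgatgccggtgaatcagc
B2m, not called, holds the response element core 139 bases before its start, and H2-T23, called higher, holds it 123 bases before. Psmb8 holds the STAT site 97 bases before its start, and Psmb5 the antioxidant core 47 bases before.

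Of the 18 class I and immunoproteasome genes with a window, 5 hold the response element core (H2-T22, H2-T23, B2m, Erap1 and Psme1) and 2 the STAT site (H2-M3 and Psmb8). Among the 11 constitutive genes with a window these are 2 (Psmb3 and Psmb4) and 0, and over all 32851 RefSeq windows they are in 8.56% and 8.30%. CCAAT is in 13 of the 18, in 6 of the 11 and in 37.4% of all windows, and the antioxidant core in 3 of the 18, in 2 of the 11 (Psmb5 and Psmb6) and in 12.4% of all windows. Within the members' windows the 2 response element cores of Erap1 overlap each other. A match is a description of the letters and not a bound site. Only these exact spellings were searched. A window without a match, such as that of H2-Q7 for the response element core, may hold the element in another spelling.

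Within the SAN titles alone, tau raised 19 of the 22 genes and 2 of the 14 constitutive subunits in APOE3, where 11.8% of all genes were called higher. The median log2 fold change of the 22 was 1.28. Within the second title series alone 2 of the 22, H2-T24 and Nlrc5, and none of the 14 were called, where 1.9% of all genes were, and the median was 0.49. All 22 log2 fold changes were above 0 in each series. In the SAN titles 20 of the 22 genes had every tau library above every untreated one, as did 15.5% of all genes tested, and in the second series 13 of the 22 did, as did 9.76%. For the 14 constitutive subunits these counts were 7 and 0.

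The difference between title series was itself tested as an interaction. It was called for Tapbpl and Psme2, both higher in the SAN titles, where 2.63% of all genes were called higher. Tapbpl had 64.3, 68.8 and 67.1 CPM in SAN tau libraries, against 23.0, 28.3 and 22.8 CPM untreated, and 44.7, 26.1 and 33.2 CPM in tau libraries of the second series, against 26.7, 30.0 and 29.5 CPM untreated. The tau effect in the SAN titles exceeded that in the second series by 1.21 ± 0.30 for Tapbpl (adjusted p = 0.0227) and by 1.75 ± 0.48 for Psme2 (adjusted p = 0.0368). No member was called without APOE3 tau replicate 2, 3, 5 or 6 or untreated APOE3 replicate 5 or 6, 1 was called without untreated APOE3 replicate 2 or 3, and 6 were called higher without untreated APOE3S/S replicate 1 or 2, where 4.24% and 4.1% of all genes were.

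Untreated APOE3 levels also differed by title series. Every SAN library lay above every library of the second series for 10 of the 22 genes (8 heavy chains, B2m and Psmb8) and 1 of the 14 (Psma1), as for 19.9% of all genes tested. H2-T24 alone of the 36 was lower in every SAN library, as were 11.9% of all genes tested. Mean CPM in the SAN titles over mean CPM in the second series was 4.87 for H2-Q6, 4.80 for H2-Q7, 2.23 for H2-Q4, 1.93 for H2-K1, 1.81 for H2-D1 and 0.64 for H2-T24. It was 2.31 for H2-M2, whose ranges overlap. For the 14 constitutive subunits the ratio ran from 0.95 to 1.21. The series go with library totals of 14.47 to 18.69 M and 15.97 to 27.23 M counts, and what else separates them is not given in the sources used here.

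**Figure D5:**
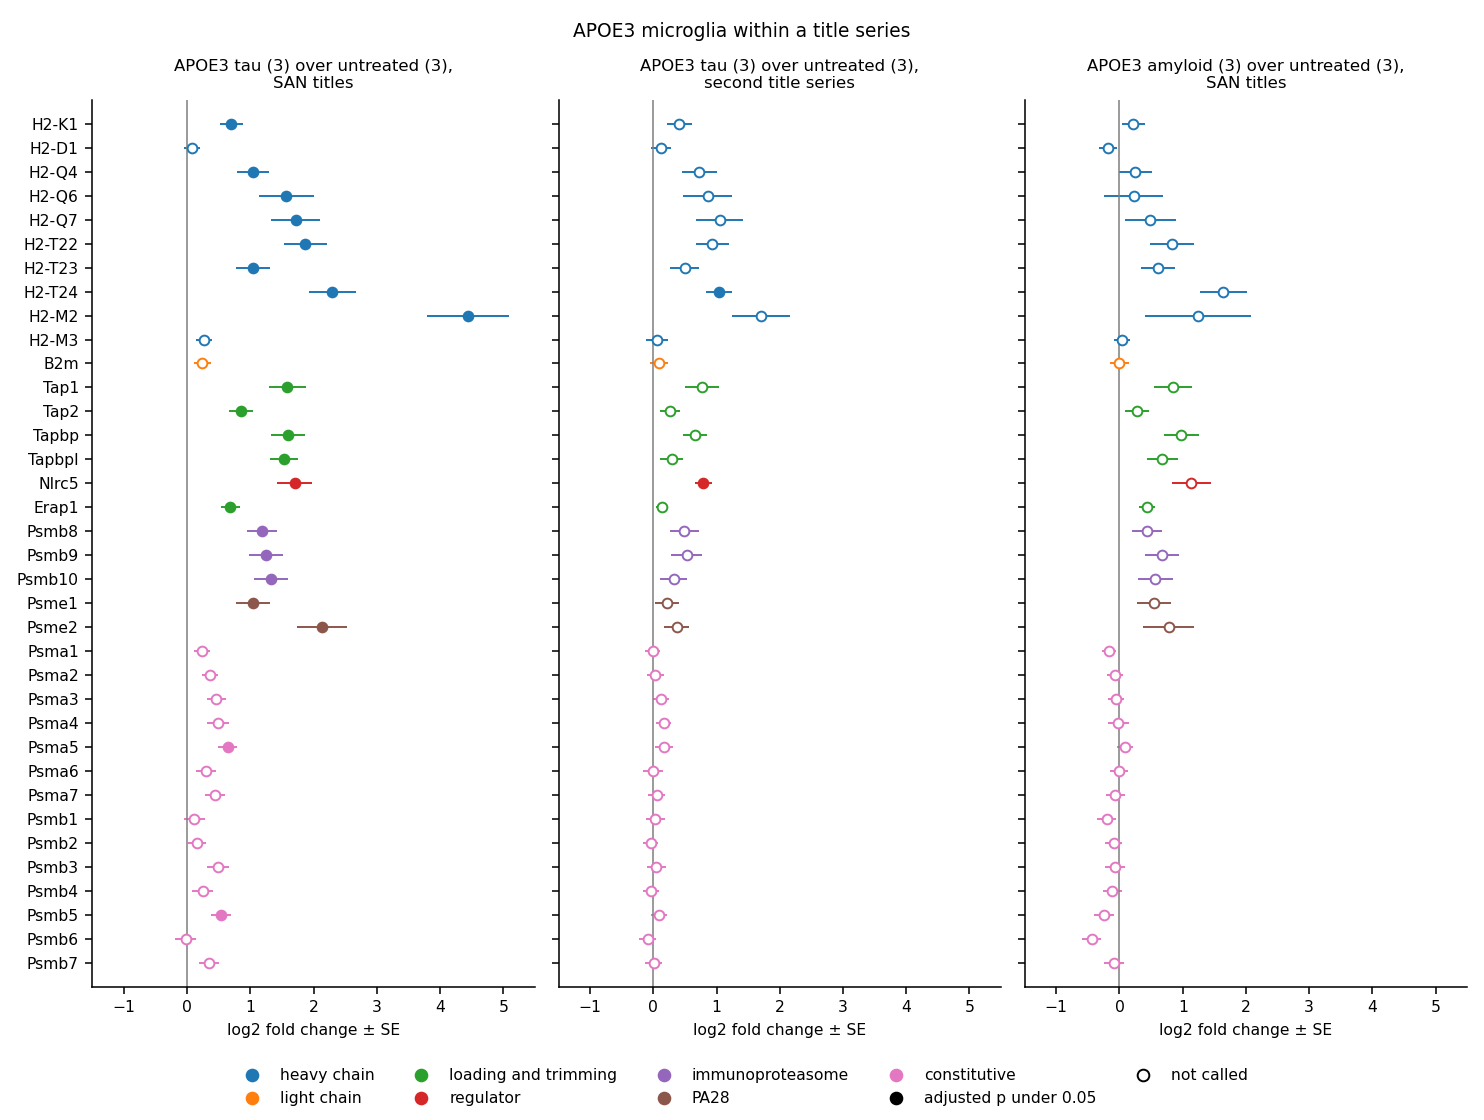
Log2 fold changes (x axis, bars are standard errors) for 36 genes (rows, coloured by role) in APOE3: tau over untreated in the SAN titles, tau over untreated in the second title series, and amyloid over untreated in the SAN titles; filled points have an adjusted p under 0.05. The filled points number 21, 2 and 0 from left to right, with medians of 1.28, 0.49 and 0.56 over the upper 22 genes.

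In APOE3S/S microglia, tau raised 3 of the 22 genes and none of the 14 constitutive subunits, where 2.14% of all genes were called higher. H2-M2 had 280.1, 224 and 394 CPM in tau libraries of the SAN titles, against 9.24 and 67.9 CPM untreated, and 7.55, 16.0 and 13.8 CPM in tau libraries of the second series, against 3.82 and 2.37 CPM untreated. The groups were apart in both series, and H2-M2 rose by 2.61 ± 0.67 (adjusted p = 0.0364). Nlrc5 rose by 0.91 ± 0.23 (adjusted p = 0.0366) and Erap1 by 0.46 ± 0.12 (adjusted p = 0.0389). The median over the 22 was 0.46 and over the 14 it was 0.03, beside -0.01 over all genes. Of the 22, 13 had an unadjusted p under 0.05, as did 2716 of the 13912 genes tested. The calls of H2-M2 and Nlrc5 were lost without APOE3S/S tau replicate 2, 4 or 6 or untreated replicate 1, 3 or 4, and that of Erap1 also without tau replicate 1 or 3.

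Untreated APOE3S/S replicate 2 moved these values. In untreated APOE3S/S replicate 2, Tapbp had 1053 CPM, against 416 CPM in replicate 1, and Psmb8 had 257 CPM, against 122 CPM. Without replicate 2, tau raised 9 of the 22 genes in APOE3S/S (H2-Q7, H2-T22, H2-T24, H2-M2, Tap1, Tapbp, Tapbpl, Nlrc5 and Erap1) and none of the 14, where 4.34% of all genes were called higher, and the median was 0.64. H2-T24 then rose by 1.58 ± 0.27 (adjusted p = 0.00217) and Nlrc5 by 1.26 ± 0.21 (adjusted p = 0.00217). When untreated APOE3S/S replicate 1 or 3 was left out instead, the median over the 22 was 0.374 or 0.429, and none of the 22 was called. Within title series, tau raised 1 of the 22 in the SAN titles (H2-M2), where 2.53% of all genes were called higher, and 3 in the second series (H2-T24, Nlrc5 and Erap1), where 1.65% were. The interaction of tau with title series in APOE3S/S was called for no member, against 0.903% of all genes in either direction, and its median was 0.31 over the 22 and 0.61 over the 14. Without untreated APOE3S/S replicate 2 it was called higher for 5 of the 22 and 1 of the 14, where 2% of all genes were, and without replicate 3 for 9 of the 14, where 3.92% were.

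None of the 36 genes passed the threshold between genotypes with tau or untreated, by edgeR, DESeq2 or limma-voom. With tau, APOE3S/S against APOE3 gave 0 members, where 0.0144% of all genes were called in either direction, and log2 differences over the 22 ran from -0.34 in H2-M2 to 0.14 in H2-Q6, with a median of 0.05. Untreated, it gave 0 members, where 0.00719% of all genes were, with a median of 0.32 over the 22 and 0.15 over the 14. Of the 22, 6 had an unadjusted p under 0.05, as did 1077 of all genes. Without untreated APOE3S/S replicate 2 the median over the 22 was 0.07. Psmb9 gave 0.57 ± 0.23 untreated (adjusted p = 0.642), with 55.0 and 137 CPM in APOE3S/S libraries of the SAN titles, against 58.3, 56.4 and 46.5 CPM in APOE3 libraries. The APOE3S/S replicate 1 value lies within that APOE3 range and the replicate 2 value above it. In the second series Psmb9 had 35.9 and 77.7 CPM in APOE3S/S libraries, against 44.3, 49.8 and 47.8 CPM in APOE3 libraries, with 1 APOE3S/S value below the APOE3 range and 1 above it.

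The tau effect itself was compared between genotypes. The interaction was called for 0 members, as for 0% of all genes tested (edgeR; 284 genes had an unadjusted p under 0.05, none of them a member). The tau effect in APOE3S/S minus that in APOE3 had a median of -0.30 over the 22 and -0.16 over the 14, and reached -0.76 ± 0.47 in Psme2 (adjusted p = 0.999). Without untreated APOE3S/S replicate 2 the median over the 22 was -0.05. DESeq2 and limma-voom also called 0 genes. The 3 calls in APOE3S/S and 19 in APOE3 are therefore not shown to differ.

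Amyloid gave no call for any member in either genotype, nor between genotypes, and no gene at all was called in these 3 comparisons (0% of 13872 genes by edgeR; 1182, 1824 and 1675 genes had an unadjusted p under 0.05 in APOE3S/S, in APOE3 and between genotypes). DESeq2 called 0 genes higher and 2 lower in APOE3S/S, 232 and 64 in APOE3, of which 3 are members, and 31 and 28 between genotypes. Limma-voom called 0 genes in each. In APOE3, H2-T24 had 74.5, 74.6 and 71.0 CPM with amyloid, against 17.4, 28.8 and 24.0 CPM in untreated SAN libraries, with a log2 fold change of 1.65 ± 0.38 (adjusted p = 0.212). Nlrc5 had 134, 129 and 126 CPM with amyloid, against 37.8, 62.3 and 76.7 CPM untreated (1.14 ± 0.31, adjusted p = 0.212), and Tapbp gave 0.98 ± 0.28 (adjusted p = 0.22). B2m gave 0.00 ± 0.14 and H2-D1 -0.18 ± 0.14. Without untreated APOE3S/S replicate 1 or 2, 6 members were called higher in APOE3, where 2.01% and 2% of all genes were, and 4 between genotypes, where 0.664% and 0.672% were.

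In all, 16 of the 22 genes had every APOE3 amyloid library above every untreated library of the SAN titles, as did 13.4% of all genes tested, while none of the 14 constitutive subunits did and Psmb6 lay below. The median was 0.56 over the 22 and -0.08 over the 14. The H2-Q genes were not among the 16: H2-Q6 had 185, 197 and 186 CPM with amyloid, against 102, 86.3 and 299.7 CPM untreated, where untreated replicate 3 lay above all amyloid libraries.

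In APOE3S/S only Erap1 of the 22 had every amyloid library above every untreated one, as did 6.97% of all genes tested, and 10 of the 14 constitutive subunits did. The median was 0.53 over the 22 and 0.27 over the 14. Without untreated replicate 2, which leaves 1 untreated library whose spread is taken from the other groups, 12 of the 22 and none of the 14 were called higher, where 2.41% of all genes were, and the median over the 22 was 1.30. H2-T23 then gave 1.32 ± 0.16 (adjusted p = 0.00177) and Psmb9 1.28 ± 0.18 (adjusted p = 0.00459). H2-M2 had 36.9, 92.5 and 379 CPM in the 3 amyloid libraries of APOE3S/S, of which replicate 3 was highest, against 9.24 and 67.9 CPM untreated.

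Between genotypes under amyloid, 18 of the 22 genes and 12 of the 14 subunits had every APOE3S/S library above every APOE3 library, as did 8.41% of all genes tested. Psmb8 had 224, 277 and 293 CPM in APOE3S/S amyloid libraries, against 167, 186 and 158 CPM in APOE3 amyloid libraries, groups that do not overlap, with a log2 difference of 0.72 ± 0.23 (adjusted p = 0.388). The median was 0.62 over the 22 and 0.40 over the 14. A fit of these 2 groups alone called 10 of the 22 and 6 of the 14 higher in APOE3S/S, where 1.79% of all genes were. The call thus depends on which libraries are fitted. That fit tested 12977 genes in place of 13872, and the cause of the change was not tested.

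Tau was also set directly against amyloid within the SAN titles. In APOE3, 5 of the 22 genes (H2-Q7, H2-M2, Tapbpl, Psmb8 and Psme2) and 7 of the 14 constitutive subunits (Psma1, Psma2, Psma3, Psma5, Psma7, Psmb3 and Psmb5) were called higher with tau, where 4.31% of all genes were. Psmb5 had 105, 109 and 121 CPM with tau, against 74.8, 72.1 and 63.1 CPM with amyloid, and rose by 0.77 ± 0.15 (adjusted p = 0.0123). H2-M2 had 268, 317 and 369.7 CPM with tau, against 32.3, 42.6 and 36.3 CPM with amyloid, and rose by 3.19 ± 0.74 (adjusted p = 0.021). H2-Q7 rose by 1.22 ± 0.35 and Psma5 by 0.55 ± 0.13. The medians were 0.63 over the 22 and 0.43 over the 14. For 21 of the 22 genes and all 14 subunits, every tau library lay above every amyloid library, as for 15.1% of all genes tested.

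These counts moved with single libraries: the 5 became 17 without untreated APOE3S/S replicate 1 or 2, where 6.8% and 6.57% of all genes were called higher, and 0 without APOE3 amyloid replicate 1, 2 or 3 or APOE3 tau replicate 5 or 6. They also moved to 2 or 3 without APOE3 tau replicate 4, APOE3S/S tau replicate 4 or 6 or APOE3S/S amyloid replicate 2, and to 8 or 9 without untreated APOE3 replicate 3 or APOE3S/S amyloid replicate 1 or 3. The 7 became 0 without APOE3 amyloid replicate 3 or APOE3 tau replicate 6, 1 without APOE3 amyloid replicate 1 or 2 or APOE3 tau replicate 5, 2 without APOE3 tau replicate 4, and 4 without APOE3S/S amyloid replicate 2 or APOE3S/S tau replicate 6. The tau and amyloid effects share their untreated libraries and are given side by side: in the SAN titles of APOE3, the log2 fold changes of tau and of amyloid over untreated were 1.70 and 1.14 for Nlrc5, 1.25 and 0.67 for Psmb9, and 1.71 and 0.49 for H2-Q7. In APOE3S/S, tau against amyloid was called for no member, where 0.149% of all genes were called in either direction, and the medians were 0.09 over the 22 and 0.02 over the 14.

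Other genes of the pathway were counted in lists. With tau in APOE3, 8.98% of all 13912 genes tested were called higher, and lists with 1 gene higher do not stand out from that share. Of 21 further class I heavy chains and class I-like genes, 8 were tested and 3 rose with tau in APOE3: the lipid-presenting Cd1d1 by 1.71 ± 0.31 (adjusted p = 0.000829), H2-Q5 by 0.81 ± 0.20 (adjusted p = 0.00623) and H2-T10 by 0.85 ± 0.26 (adjusted p = 0.0272). Of 13 loading chaperones and other peptidases, 12 were tested, Npepps (a cytosolic aminopeptidase) rose by 0.24 ± 0.07 and Blmh (bleomycin hydrolase) fell by 0.28 ± 0.09 on the log2 scale, while Sec61a1 of the translocation channel gave 0.17 ± 0.07 (adjusted p = 0.0977). The 19S regulatory particle feeds substrates to the core. Of 21 genes listed for this particle and its assembly, 1 rose, and the median was 0.04. It was Psmd10, an assembly factor and not a subunit of the finished particle, by 0.63 ± 0.15 (adjusted p = 0.00776). Next to Psmd10 by p were Psmd8 at -0.27 ± 0.09 and Psmd11 at 0.16 ± 0.07, neither called.

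Of 10 other activators, inhibitors and assembly factors, 9 were tested and 1 rose, the activator Psme4 by 0.27 ± 0.07 (adjusted p = 0.012), while the assembly factors Psmg2 and Pomp gave -0.34 ± 0.12 and 0.25 ± 0.14, neither called. Of 14 transcription factors of these genes, 13 were tested, 7 rose and 1 fell with tau in APOE3. Of all 13912 genes tested, 1249 rose and 817 fell. Stat2, which carries type I interferon signals to the nucleus, rose by 1.38 ± 0.26 (adjusted p = 0.000902), and Irf8, a factor of the myeloid lineage, fell by 0.46 ± 0.08 on the log2 scale (adjusted p = 0.000409). Of 10 interferon ligands, receptors and kinases, 9 were tested and 5 rose, among them the feedback inhibitor Socs1 by 2.15 ± 0.41, the receptor chain Ifngr2 by 0.28 ± 0.06 and the kinase Tyk2 by 0.49 ± 0.11 (adjusted p = 0.00103, 0.00394 and 0.00397). In APOE3S/S the same 6 lists gave 2, 1, 0, 1, 1 and 1 genes higher and Irf8 lower. Of all 13912 genes tested there, 298 (2.14%) were called higher and 159 lower. No gene of the lists was called under amyloid or between genotypes with tau.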

How the data were processed

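Counts of 3′ tags per gene were deposited as 2 tables, unnormalised whole numbers as checked on the files. Per the labels' protocols, RNA was column-extracted and libraries were made with a QuantSeq 3′ forward kit. The submitters' processing notes name GRCm38, mm10 and DESeq2 1.38.3. Which aligner or counter was run is not given in the sources used here. The tables hold 22 and 11 libraries, and 5 untreated libraries stand in both with identical counts and were used once. Of 60976 entries per table, 6360 held no number and 25 no name, and 180 repeats of a symbol were left out.

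Tau comparisons used 22 libraries with terms for group and title series. Amyloid comparisons used 11 SAN libraries and tau against amyloid 17. Genes were kept by filterByExpr, scaled by TMM and tested across all genes by edgeR 4.0.16 (R 4.3.3), with Benjamini-Hochberg adjustment and a call at adjusted p under 0.05. CPM are counts scaled to 1000000 counts per library. The fits were checked on simulated counts. Alternatives were RLE scaling, no filter, a mean of at least 10 CPM, DESeq2 1.42.0, limma-voom (limma 3.58.1), single series, fewer groups, a block on replicate numbers, and removal of each library. Ratios used a pseudocount of 0.5, or 5 as an alternative.

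The 36 genes, lists and motifs were chosen with earlier results of these data known. All 36 are named, and from each other list the 3 smallest p with tau in APOE3 and any gene called between genotypes. A gene that this rule names among the transcription factors is not reported here. No member symbol repeats, so summing repeats changes nothing. Coordinates and sequences come from RefSeq GRCm38.p6 and 3′ word sharing from GENCODE transcripts.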

Additional observations from a re-analysis of the deposited data

Results flagged for a closer look

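In 144 checks of 36 genes in the groups of 4 or 6 libraries, 3 found a library far from the others of its group. The nominal rate is about 1 in 20 checks, but these groups pool both title series, so it need not hold. A library apart only within its own series can go unflagged. The flags were untreated APOE3 replicate 3 for Tap1 (177 CPM, next highest 131 CPM), untreated APOE3 replicate 1 for Erap1 (70.6 CPM, next lowest 95.6 CPM) and untreated APOE3 replicate 1 for Psma3 (58.1 CPM, next highest 49.4 CPM). The tau effect differed between title series in APOE3 by 1.21 on the log2 scale for Tapbpl and by 1.75 for Psme2, larger in the SAN titles.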

How the results depend on the processing

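Of 36 calls of a single gene in a comparison, none changed direction under any alternative run, and of their 1000 repeats 834 kept direction and call and 166 kept direction and lost the call. With tau in APOE3, members called among the 22 numbered 10 with no term for title series and 2 in the second title series alone, beside 19. Among the 14 constitutive subunits they numbered 2 by DESeq2, in the SAN titles alone or with no filter, 1 by RLE scaling, limma-voom, a mean of at least 10 CPM or the 2 compared groups alone, and 0 to 2 when 1 library was left out. With tau in APOE3S/S the 3 calls became 1 in the SAN titles alone, 6 by limma-voom, 14 with no filter, 0 with no term for title series, and 0 to 9 when 1 library was left out.

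With no filter, 10 members were called between untreated genotypes and 2 in the difference of tau effects, beside 0 each. With amyloid in APOE3 the count of 0 became 3 by DESeq2, 1 over all 17 SAN libraries, 12 with no filter, 8 in the 2 groups alone, and 0 to 6 leaving out 1 library. With amyloid in APOE3S/S it became 10 with no filter and 0 to 12 leaving out 1 library. Between genotypes under amyloid it became 16 with no filter, 10 in the 2 groups alone and 0 to 4 leaving out 1 library, and among the constitutive subunits 3 with no filter and 6 in the 2 groups alone. For tau against amyloid in APOE3 the 5 became 12 by DESeq2, 18 with no filter and 0 to 17 leaving out 1 library, and the 7 constitutive calls 0 to 9, while in APOE3S/S the 0 became 3 with no filter. The tau effect by title series gave 14 in APOE3 with no filter and 0 to 6 leaving out 1 library, in APOE3S/S 3 and 0 to 5, and among constitutive subunits in APOE3S/S 1 by DESeq2, 3 with no filter and 0 to 9. The no-filter fit tests more genes and shares the spread differently, and the cause was not tested. Counts of members in this section stand without the share of all genes called in the same fit. They do not show whether members were called more often than other genes.

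For the tau difference of ratios in APOE3, Psmb9 over Psmb6 was 1.26 in the SAN titles alone, 0.58 in the second series alone and 0.84 to 1.02 leaving out 1 library, Psmb10 over Psmb7 was 0.99, 0.30 and 0.58 to 0.74, and Psmb8 over Psmb5 was 0.64, 0.37 and 0.45 to 0.58. Within 1 series the adjusted exact permutation p ranged over values above the threshold because 3 libraries against 3 allow no smaller raw p than 0.1, and without untreated APOE3 replicate 4, 5 or 6, or for Psmb10 without tau replicate 1, the adjusted p was 0.06 to 0.09.

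Replicate numbers in the titles did not pair the samples (correlations of deviations -0.12 to 0.17). A replicate block gave 0 calls between genotypes with tau and untreated, and under amyloid 6 of the 22 genes and 1 of the 14 subunits. Depth covers counting error only, and no member was limited by the filter.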
